A study of Homo sapiens with 21 samples.

Results

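The cytosolic ribosomal protein genes formed a group of 75 among the 37355 genes of the count table. A gene belonged when its symbol was RPL or RPS followed by a number, alone or with a closing A, L or X, or was RPLP0, RPLP1, RPLP2 or RPSA, and its counts reached 1000 in sum over the 21 libraries. The symbol fitted 80 genes. The 5 below the count limit were RPL10L with 2 counts, RPS18 with 4, RPL3L with 60, RPS10L with 140 and RPS28 with 978, and the nearest above it were RPS10 with 1336 and RPL21 with 1833. Of the 75 members, 47 encode proteins of the large 60S subunit and 28 proteins of the small 40S subunit. All 75 were among the 17650 genes tested. The rule uses symbols and summed counts and no change between groups, though it was drawn up with earlier results of these data known.

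Each ribosomal protein is made from its own gene, and in growing cells the proteins are made in step with ribosomal RNA and assembled with it in the nucleolus into the subunits that translate mRNA. Most of their mRNAs begin with a C followed by a run of pyrimidines, the terminal oligopyrimidine (TOP) motif, through which mTOR signalling and the RNA-binding protein LARP1 set their translation and stability. HER2, the receptor that both antibodies bind, signals to mTOR through PI3K and AKT. When ribosome assembly is disturbed, RPL5, RPL11 and RPL23 bind MDM2, the ubiquitin ligase that limits p53.

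RNA was sequenced from the human line BT474, breast cancer cells that carry extra copies of ERBB2 (the HER2 gene), and from resistant pools grown out of it, in 7 groups of 3 libraries. BT474 cells were given both 10 µg/mL trastuzumab and 10 µg/mL pertuzumab for 3 days, or 10 µg/mL trastuzumab alone for 3 days. BT-TR2 and BT-TR1 are pools resistant to trastuzumab, and BT-TPR2 and BT-TPR1 are pools resistant to the combination; all 4 pools were kept without antibody for the last 7 days. The reference was untreated BT474 cells, sensitive to the antibodies. Each kind of resistance is thus represented by 2 pools from 1 cell line, and the labels do not say whether the 3 libraries of a group came from separate cultures, so every p-value measures only the spread between these libraries.

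The sequence at the annotated start of transcription was read for the members first, because it is the feature for which these mRNAs are known. RefSeq (GRCh38.p14) gave a start for 60 of the 75 members, 75 starts in all. The start base lay inside a run of at least 5 pyrimidines (C or T, on the transcribed strand only) in 47 of these members, 78.3%, against 11.9% of the 27305 genes of the table with an entry. A start at C followed by at least 4 pyrimidines was found in 44 members, 73.3%, against 5.14%. A gene with several starts was counted once, by its longest run. The windows printed here hold 15 bases before the start and 15 from it on, 5′ to 3′, so that the start is base 16, and capitals mark the pyrimidine run that holds it. The first 7 belong to members described below by role or by size of change. RPL36A has such a run and was lower in the pools. RPS27L and RPL17 have none that holds the start and were among the largest changes, though the RPL17 window has a pyrimidine run just before the start.
RPLP0: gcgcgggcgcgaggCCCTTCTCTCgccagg
RPSA: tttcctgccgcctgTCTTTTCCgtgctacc
RPS6: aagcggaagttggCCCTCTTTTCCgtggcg
RPL11: cggaagctccgCTTTCTCTTCCTgctctcc
RPS27A: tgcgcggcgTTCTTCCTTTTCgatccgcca
RPL19: gagcgagCTCTTTCCTTTCgctgctgcggc
RPL22: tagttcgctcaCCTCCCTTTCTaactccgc
RPL36A: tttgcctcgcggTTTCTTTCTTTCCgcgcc
RPS27L: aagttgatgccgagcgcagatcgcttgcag
RPL17: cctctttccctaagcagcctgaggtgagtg
Their positions on GRCh38.p14 are RPLP0 at chr12:120201097-120201126 (minus strand), RPSA at chr3:39406705-39406734 (plus strand), RPS6 at chr9:19380222-19380251 (minus strand), RPL11 at chr1:23691791-23691820 (plus strand) and RPS27A at chr2:55232673-55232702 (plus strand). The others are RPL19 at chr17:39200308-39200337 (plus strand), RPL22 at chr1:6199581-6199610 (minus strand), RPL36A at chrX:101390996-101391025 (plus strand), RPS27L at chr15:63157463-63157492 (minus strand) and RPL17 at chr18:49492451-49492480 (minus strand). The 13 members whose start lay in no such run were RPL10A, RPL15, RPL17, RPL27, RPL32, RPL4, RPL6, RPL9, RPS15, RPS26, RPS27L, RPS29 and RPS4X. Some of them have a pyrimidine run elsewhere in the window, such as RPL17 before the start and RPL10A, RPL4 and RPL9 after it. These are annotated starts, and the starts used in these cells were not measured, so the split depends on where the start is annotated.

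Libraries held 7939270 to 21746391 counts. The luminal breast markers were present, with ERBB2 at a mean of 6511 CPM (read counts scaled to a common normalized library size) as the highest of 7. Summed levels in a library ran from 6215 to 13776 CPM for 7 luminal markers, 16.4 to 46.6 for 5 fibroblast markers, 5.39 to 18.4 for 3 endothelial markers and 0.192 to 1.29 for the 3 leukocyte markers with a row, all 3 under 1 CPM on average. COL1A1 at 25.1 CPM and VWF at 7.91 CPM were the only fibroblast and endothelial markers over 1 CPM. Replicate 1 stood apart in each group: its deviations from the mean of its group, taken gene by gene, went with GC content at r from 0.31 to 0.63, against -0.54 to 0.08 for replicates 2 and 3. GC content here and below is that of the longest annotated transcript of each gene, which need not be the form sequenced. Mitochondrially encoded genes took 16.5 to 33.3% of counts in replicate 1 libraries and 13.7 to 21.9% in the others. The part of the mitochondrial share in the results was not tested. Counts of changed genes are also given with replicate number as a block, wherever same-numbered libraries deviated together and the count moved by more than 1.5 times. Counts of members with a library left out have no share of all genes beside them. They show how far a count moved and are not read as results about the members.

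The 75 members took between 1.22 and 2.14% of all counts. For replicates 1, 2 and 3 the share was 1.28, 1.64 and 1.59% with both antibodies and 1.44, 1.47 and 1.67% with trastuzumab. It was 1.86, 1.82 and 1.66% in BT-TR2, 1.65, 1.37 and 1.43% in BT-TR1, 1.96, 2.14 and 1.90% in BT-TPR2 and 1.89, 1.94 and 1.68% in BT-TPR1, against 1.33, 1.22 and 1.41% in untreated cells. Every library of BT-TR2, BT-TPR2, BT-TPR1 and of trastuzumab treatment was above the 3 untreated ones, while BT-TR1 and treatment with both antibodies overlapped them. These shares include RPL19 and RPL23, which are set apart below. Outside the mitochondrial genes, the mean share was 1.97 ± 0.128% with both antibodies, 2.04 ± 0.152% with trastuzumab, 2.20 ± 0.171% in BT-TR2, 1.86 ± 0.169% in BT-TR1, 2.44 ± 0.0800% in BT-TPR2, 2.19 ± 0.125% in BT-TPR1 and 1.67 ± 0.132% in untreated cells (SD, n = 3 each). BT-TPR2 had the highest mean on both scales. Fewer cells of one kind and less RNA per cell cannot be told apart in these bulk libraries, and shares of counts say nothing of the total RNA per cell.

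**Figure D1:**
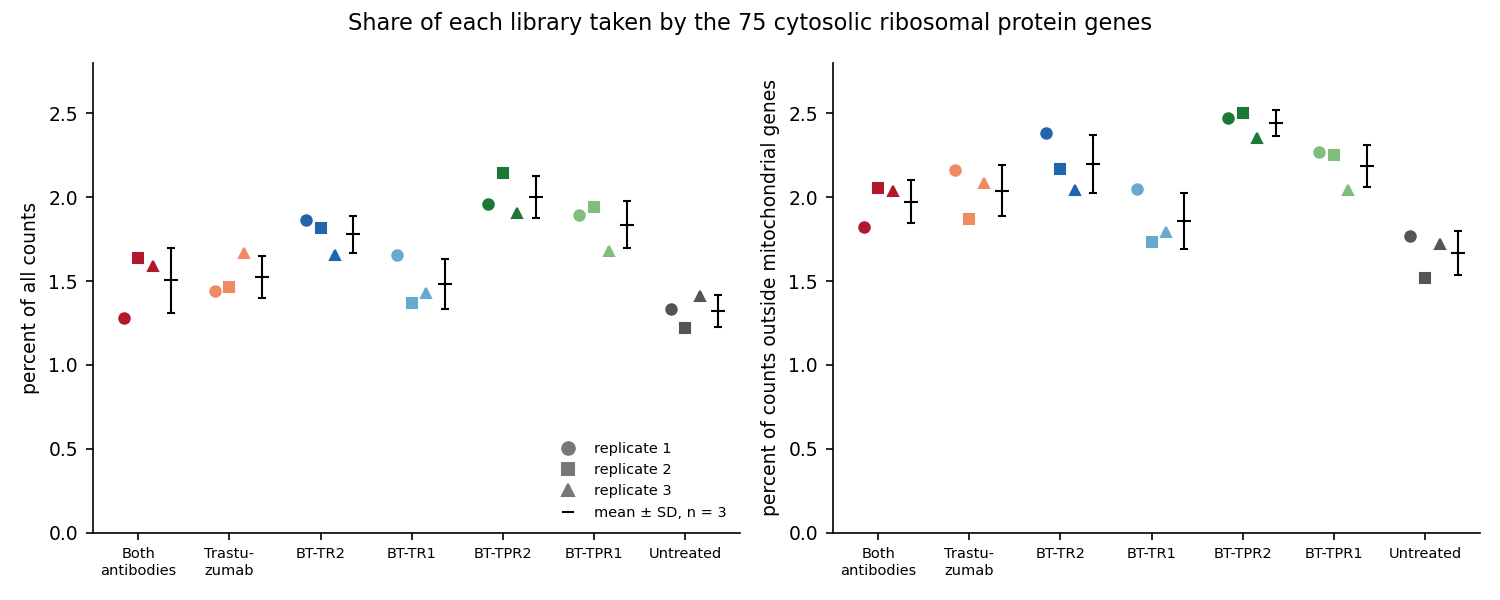
Share of each library's counts taken by the 75 ribosomal protein genes, by group (x axis) and in percent (y axis), over all counts on the left and over counts outside mitochondrially encoded genes on the right. Each symbol is a library and the bar the mean ± SD of 3; the 3 BT-TPR2 libraries, at 1.90 to 2.14% of all counts, lie above the untreated ones at 1.22 to 1.41%.

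A pair of genes beside ERBB2 held a large part of these counts. RPL19 and RPL23, both of the 60S subunit, together took 31.6 to 42.7% of the members' counts. In summed CPM with the pair, BT-TR2 (16122 to 19527) lay above untreated libraries (12288 to 14871). Without it BT-TR2 (9877 to 12102) overlapped them (8187 to 10172). Every library of BT-TPR2 (11798 to 12497) and BT-TPR1 (10548 to 11796) stayed above them without the pair. Trastuzumab (9440 to 11338.5), both antibodies (9609 to 9981) and BT-TR1 (8227 to 10042) overlapped them. RPL19 lies on chromosome 17 at 39200283 to 39204732 (hg38, GENCODE 29), which starts 0.488 megabases before ERBB2, and RPL23 at 38847865 to 38853843 starts 0.84 megabases before it. Per kilobase of annotated exon, mean levels over all libraries were 2231 CPM for RPL19, 631 for ERBB2, 352 for RPL23 and 238 for RPL8, the third member in this order. The median member had 32.9 CPM per kilobase. Of the 4 other members on the chromosome, RPL27, 3.31 megabases after the start of ERBB2, had 82.9, RPL26 42.1, RPL38 7.24 and RPL23A 6.16 CPM per kilobase. The lowest were RPS10 at 1.52 and RPS27L at 1.34. The length takes in every annotated exon, 9127 bases for RPS27L and 1761 for RPL19, and need not be that of the mRNA sequenced.

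Ribosomal protein genes have many processed pseudogenes, whose sequence is close to the parent mRNA. The table held 648 genes named as pseudogenes of ribosomal proteins, with 2853488 counts in all against 5966558 in the members, and in 28 members the pseudogenes held at least as many counts as the member itself. Among members named below this was so for RPLP0, RPSA, RPL5, RPL13A, RPS7 and RPS19, and RPS10 and RPS2 came close (1220 counts in pseudogenes against 1336 in RPS10, and 84313 against 116574 in RPS2). Exons of 32 members overlap another gene of the table, among them RPS6, RPS27A, RPL5, RPL22, RPL15, RPL13A, RPL27A, RPL36, RPL9 and RPL17. How reads with several matches were counted, and whether strand was used, is not given in the sources used here, so levels of these members are uncertain. RPL19, RPL23, RPL11, RPLP1, RPL29, RPS21, RPL36A, RPL41 and RPS27L overlap no other gene of the table, with few counts or none in pseudogenes. This does not make their levels certain, since reads with several matches may be missing from gene and pseudogene alike. RPL36A, for example, has 11 named pseudogenes with 205 counts in all. Annotated genes that have no row in the table were not examined for overlap.

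The members beside ERBB2 were higher in the resistant pools. RPL19 had 2903, 3870.2 and 3323 CPM with both antibodies and 3409, 3235 and 3521 CPM with trastuzumab. Its values were 5250.3, 4396 and 4274 CPM in BT-TR2, 4131, 3758 and 3825 CPM in BT-TR1, 5289.6, 5267 and 4598 CPM in BT-TPR2 and 4412, 4269.8 and 3641 CPM in BT-TPR1, against 3256, 2655 and 3219 CPM in untreated cells. All 12 pool libraries lay above the 3 untreated ones, and each antibody group had at least 1 library within their range. Against untreated cells the log2 fold change of RPL19 was 0.61 ± 0.13 in BT-TR2 (adjusted p = 0.00171), 0.36 ± 0.13 in BT-TR1 (adjusted p = 0.0275), 0.73 ± 0.13 in BT-TPR2 (adjusted p = 2.44e-04) and 0.43 ± 0.13 in BT-TPR1 (adjusted p = 0.0154). In BT-TR1 the call ended without untreated replicate 2 (0.0788) or BT-TR1 replicate 1 (0.05001), or when low counts were not filtered (0.0584), library size alone was the scaling (0.0532) or the fit held only the groups compared (0.0983), and in BT-TPR1 without untreated replicate 2 (0.0544), BT-TPR1 replicate 1 (0.0611) or BT-TPR1 replicate 2 (0.0626), or when the fit held only the groups compared (0.0796), adjusted p in parentheses. RPL23 was the other of the pair. RPL23 had 1795, 2135 and 2562 CPM with both antibodies and 2117, 1855 and 2356 CPM with trastuzumab. It had 2175, 2174 and 1972 CPM in BT-TR2, 2297, 2302 and 2567 CPM in BT-TR1, 2127, 2434 and 2552 CPM in BT-TPR2 and 2009, 2205 and 1899 CPM in BT-TPR1, against 1443, 1446 and 1775 CPM in untreated cells. All 18 treated and resistant libraries were above the 3 untreated ones. Its log2 fold change was 0.48 ± 0.13 with both antibodies (adjusted p = 0.0232) and 0.44 ± 0.13 with trastuzumab (adjusted p = 0.0488), and 0.44 ± 0.13 in BT-TR2 (adjusted p = 0.0207), 0.62 ± 0.13 in BT-TR1 (adjusted p = 0.0013), 0.61 ± 0.13 in BT-TPR2 (adjusted p = 0.00182) and 0.39 ± 0.13 in BT-TPR1 (adjusted p = 0.0341).

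The RPL23 call with trastuzumab lay close to the threshold (adjusted p = 0.0488). It ended when any of 16 of the 21 libraries was left out (adjusted p from 0.0505 to 0.215), under scaling by library size alone, in a fit of only the groups compared, or from replicates 2 and 3 alone. The 5 that could be left out without ending it were untreated replicate 3, trastuzumab replicate 2, replicates 1 and 3 of both antibodies and BT-TPR2 replicate 1. With both antibodies it ended without any one of untreated replicates 1 or 2 or both antibodies replicates 2 or 3 (from 0.0579 to 0.167), or when library size alone was the scaling (0.0613) or the fit held only the groups compared (0.128). In BT-TR2 it ended without any one of untreated replicates 1 or 2 or BT-TR2 replicates 1 or 2 (from 0.0571 to 0.0747), or when the fit held only the groups compared (0.0579) or replicates 2 and 3 alone were used (0.0506), and in BT-TPR1 without any one of untreated replicates 1 or 2 or BT-TPR1 replicates 1 or 2 (from 0.0622 to 0.146), or when the fit held only the groups compared (0.0994) or replicates 2 and 3 alone were used (0.0509). ERBB2 itself did not pass the test in any of these comparisons, with 5491 ± 1116 CPM with both antibodies, 6007 ± 636 with trastuzumab, 7700.1 ± 1641 in BT-TR2, 5444 ± 1183 in BT-TR1, 6829 ± 2139 in BT-TPR2, 5919.8 ± 1300.1 in BT-TPR1 and 8184 ± 1922 in untreated cells (SD, n = 3 each).

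RPS27L, a paralog of RPS27 that p53 is known to induce, had the largest rise of any called member under the antibodies. It had 16.6, 15.2 and 18.0 CPM with both antibodies and 18.1, 12.9 and 15.7 CPM with trastuzumab, against 8.68, 7.65 and 8.67 CPM in untreated cells. Each of the 6 treated libraries was above the 3 untreated ones. Its log2 fold change was 0.99 ± 0.13 with both antibodies (adjusted p = 5.80e-05) and 0.90 ± 0.13 with trastuzumab (adjusted p = 3.20e-04), and both calls held under all 32 alternatives. The pools had 11.1, 11.9 and 9.49 CPM in BT-TR2, 13.1, 11.1 and 11.0 CPM in BT-TR1, 11.9, 12.9 and 12.8 CPM in BT-TPR2 and 9.60, 10.8 and 9.80 CPM in BT-TPR1. All 12 pool libraries were above the untreated ones, with a log2 fold change of 0.38 ± 0.13 in BT-TR2 (adjusted p = 0.0462), 0.50 ± 0.14 in BT-TR1 (adjusted p = 0.00754) and 0.59 ± 0.13 in BT-TPR2 (adjusted p = 0.00254); BT-TPR1 did not pass (adjusted p = 0.142). The BT-TR1 call ended when low counts were not filtered (0.0702), when the fit held only the groups compared (0.0568) or when GC content was corrected for (0.0633). The BT-TR2 call ended without any one of untreated replicates 1, 2 or 3, trastuzumab replicate 3, both antibodies replicates 2 or 3, BT-TR2 replicates 1 or 2, BT-TPR1 replicates 1, 2 or 3 or BT-TPR2 replicates 2 or 3 (from 0.0506 to 0.18), or when low counts were not filtered (0.241), limma was used (0.0513), the fit held only the groups compared (0.13) or replicates 2 and 3 alone were used (0.0573). RPL39L, a paralog of RPL39 best known from the testis, averaged 11.6 ± 0.948 CPM with both antibodies, 11.3 ± 1.33 CPM with trastuzumab, 18.9 ± 2.66 CPM in BT-TR2, 15.2 ± 1.05 CPM in BT-TR1, 16.2 ± 1.74 CPM in BT-TPR2, 16.9 ± 2.14 CPM in BT-TPR1 and 15.3 ± 1.16 CPM in untreated cells (SD, n = 3 each). No comparison of RPL39L passed without the block; with it, the log2 fold change was -0.43 with trastuzumab (adjusted p = 0.0129) and 0.30 in BT-TR2 (adjusted p = 0.0454). The other paralogs that the symbol admits, RPL3L and RPL10L, were below the count limit.

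RPL5 and RPL11 carry the 5S RNA into the large subunit and are the members best known for binding MDM2. RPL11 had 249, 266 and 328 CPM with both antibodies and 303, 268 and 311 CPM with trastuzumab. It had 264, 238 and 240.3 CPM in BT-TR2, 276, 228 and 252 CPM in BT-TR1, 345, 367 and 431 CPM in BT-TPR2 and 349, 349 and 367 CPM in BT-TPR1, against 228, 202 and 247 CPM in untreated cells. The pools resistant to both antibodies stood above the untreated cells in every library, as did both antibody groups, while BT-TR2 and BT-TR1 overlapped them. RPL11 rose in BT-TPR2 and BT-TPR1, with a log2 fold change of 0.76 ± 0.12 in BT-TPR2 (adjusted p = 8.59e-05) and 0.65 ± 0.12 in BT-TPR1 (adjusted p = 4.78e-04). With the replicate block it also passed with trastuzumab (0.38, adjusted p = 0.00285, against 0.0531 without it). RPL5 averaged 141 ± 11.3 CPM with both antibodies, 143 ± 27.0 CPM with trastuzumab, 136 ± 17.2 CPM in BT-TR2, 161 ± 14.2 CPM in BT-TR1, 169.6 ± 1.53 CPM in BT-TPR2, 146 ± 6.71 CPM in BT-TPR1 and 138 ± 18.3 CPM in untreated cells (SD, n = 3 each). It passed only with the block, in BT-TR1 (0.22, adjusted p = 0.0307) and BT-TPR2 (0.31, adjusted p = 0.00435). Treatment with both antibodies is left out of these blocked values, since its same-numbered libraries did not deviate together with the untreated ones.

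RPS6, the 40S protein that S6 kinase phosphorylates downstream of mTOR, had 316, 350.3 and 386 CPM with both antibodies and 384, 325 and 377 CPM with trastuzumab. In the pools it had 355, 357 and 352 CPM in BT-TR2, 385, 317 and 396 CPM in BT-TR1, 361, 398 and 439 CPM in BT-TPR2 and 392, 393 and 395 CPM in BT-TPR1, against 296, 261 and 318 CPM in untreated cells. Libraries of trastuzumab treatment, BT-TR2, BT-TPR2 and BT-TPR1 all lay above the untreated ones, and treatment with both antibodies and BT-TR1 each had 1 library within their range. The log2 fold change that passed was 0.33 ± 0.11 in BT-TR1 (adjusted p = 0.022), 0.45 ± 0.11 in BT-TPR2 (adjusted p = 0.00423) and 0.43 ± 0.11 in BT-TPR1 (adjusted p = 0.00688). The BT-TR1 call ended without untreated replicate 2 (0.0651) or BT-TR1 replicate 3 (0.0811), with replicates 2 and 3 alone, with no filter on low counts, when the fit held only the groups compared or scaled by library size alone, and with a correction for GC content (log2 fold change 0.15, adjusted p = 0.293). With the block it also passed with trastuzumab (0.31, adjusted p = 0.0109) and in BT-TR2 (0.29, adjusted p = 0.0106).

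RPS27A encodes ubiquitin fused to a 40S protein. It had 142, 130.3 and 145 CPM with both antibodies and 154, 122 and 139 CPM with trastuzumab, against 130.1, 126 and 128 CPM in untreated cells. The 3 untreated libraries were close together, and the trastuzumab group spanned them. The pools had 173, 165 and 147 CPM in BT-TR2, 234, 225 and 264 CPM in BT-TR1, 187, 208 and 199 CPM in BT-TPR2 and 167, 175 and 155 CPM in BT-TPR1, and every pool library was above the untreated ones. RPS27A rose in all 4 pools, by 0.34 ± 0.10 in BT-TR2 (adjusted p = 0.018), 0.91 ± 0.10 in BT-TR1 (adjusted p = 1.67e-06), 0.63 ± 0.10 in BT-TPR2 (adjusted p = 9.80e-05) and 0.37 ± 0.10 in BT-TPR1 (adjusted p = 0.00884) on the log2 scale. The BT-TR2 call ended without BT-TR2 replicate 1 (0.0735) or BT-TR2 replicate 2 (0.0615), or when low counts were not filtered (0.122) or the fit held only the groups compared (0.0703). That in BT-TPR1 ended when low counts were not filtered (0.0713) or when the fit held only the groups compared (0.0542). The 3 BT-TR1 libraries were above all others, and BT-TR2 was lower than BT-TR1 (log2 fold change -0.58 ± 0.10, adjusted p = 0.00189).

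RPLP0, with RPLP1 and RPLP2 the stalk of the 60S subunit that recruits elongation factors, averaged 273 ± 10.2 CPM with both antibodies, 263 ± 47.4 CPM with trastuzumab, 325 ± 30.9 CPM in BT-TR2, 234 ± 53.4 CPM in BT-TR1, 335 ± 20.4 CPM in BT-TPR2, 314 ± 45.4 CPM in BT-TPR1 and 271 ± 68.8 CPM in untreated cells (SD, n = 3 each). It passed only with the block, in BT-TR2 (0.28, adjusted p = 0.0168), BT-TPR2 (0.33, adjusted p = 0.00537) and BT-TPR1 (0.23, adjusted p = 0.0483). RPLP1 fell in BT-TR1, where it had 28.5, 19.5 and 18.5 CPM, against 137, 54.8 and 54.2 CPM in untreated cells. Untreated replicate 1 was far above the other 2, and each BT-TR1 library was below all untreated ones. The call held under all 32 alternatives (log2 fold change -1.88 ± 0.47, adjusted p = 0.004), and without untreated replicate 1 the log2 fold change was -1.27. With both antibodies RPLP1 had 43.6, 40.5 and 32.4 CPM, also below every untreated library, and with trastuzumab 54.4, 37.6 and 42.3 CPM. It averaged 47.1 ± 28.7 CPM in BT-TR2, 49.7 ± 28.7 in BT-TPR2 and 55.6 ± 30.2 in BT-TPR1 (SD, n = 3 each). RPLP1 passed in none of these groups without the block. RPSA, a 40S protein also known as the laminin receptor, averaged 30.2 ± 5.16 CPM with both antibodies, 32.2 ± 10.4 CPM with trastuzumab, 35.1 ± 8.94 CPM in BT-TR2, 29.2 ± 8.87 CPM in BT-TR1, 33.8 ± 5.05 CPM in BT-TPR2, 32.9 ± 8.34 CPM in BT-TPR1 and 32.3 ± 7.76 CPM in untreated cells (SD, n = 3 each), with untreated libraries among those of every other group, and it passed in no comparison with untreated cells, with the block or without.

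**Figure D2:**
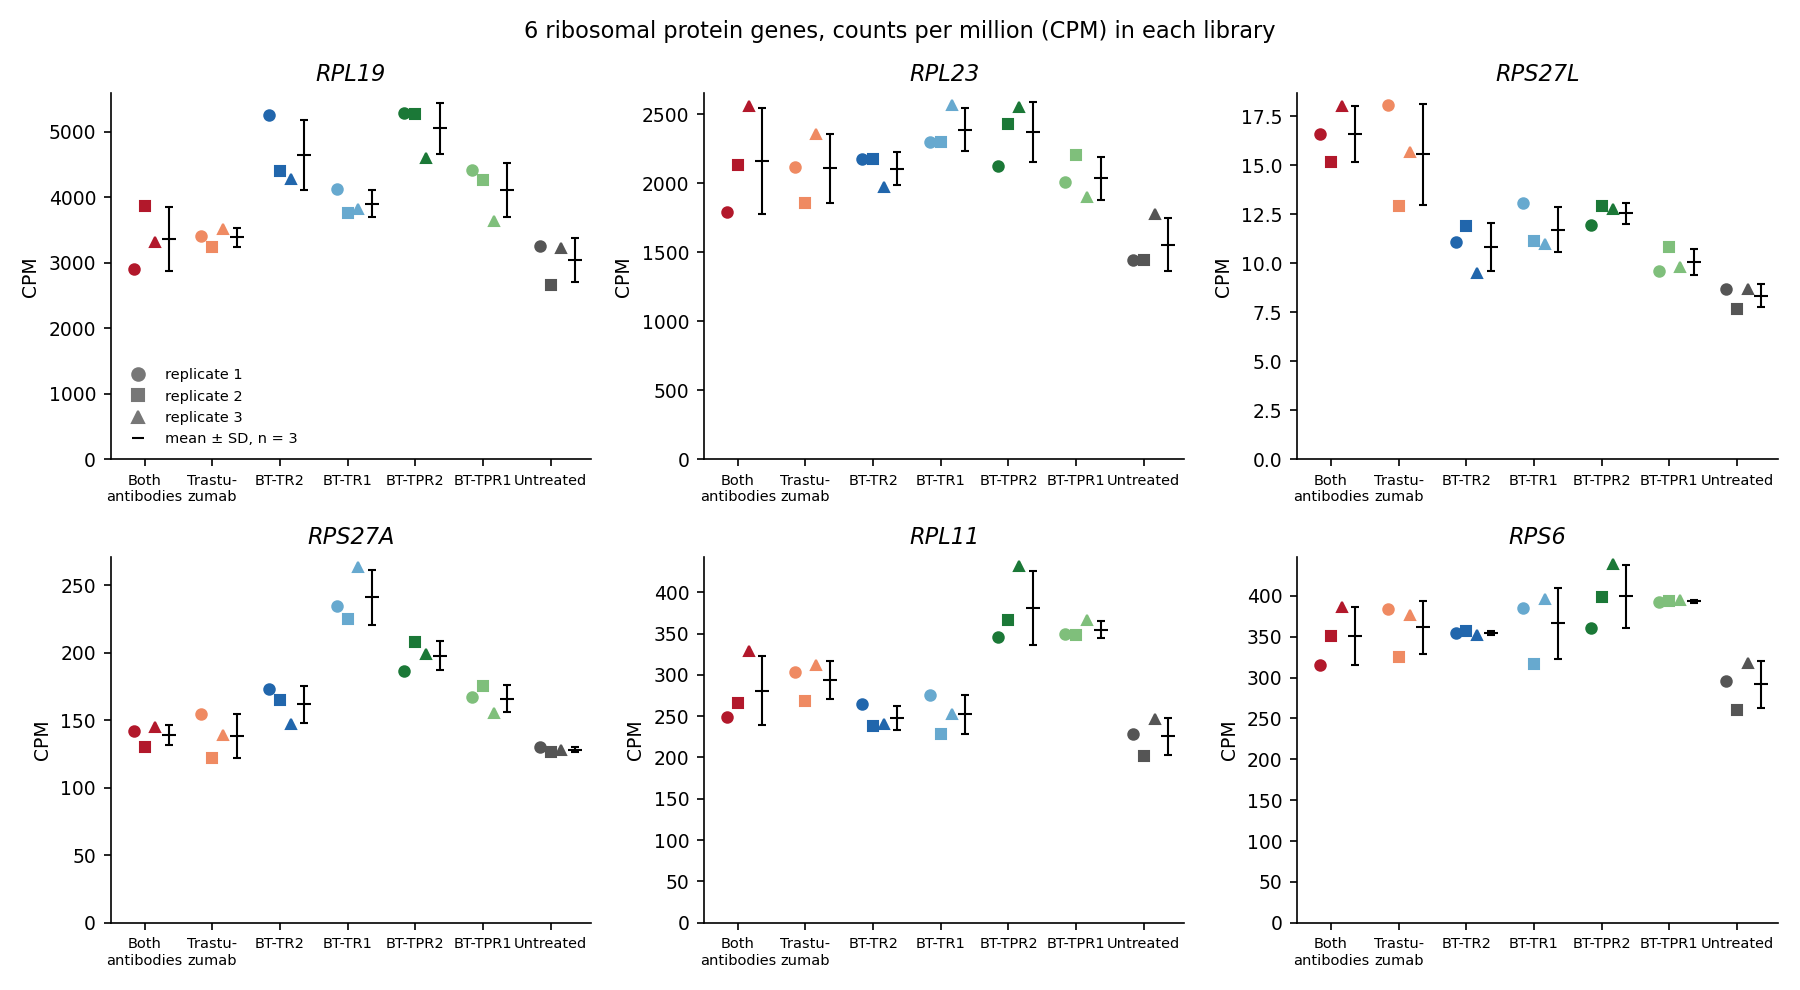
Level of 6 members in each library, in CPM (y axes, from 0), by group (x axes); each symbol is a library and the bar the mean ± SD of 3. RPS27L was highest under the antibodies, RPS27A in BT-TR1, and RPL11 in BT-TPR2, where it averaged 381 CPM, against 225 CPM in untreated cells.

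With trastuzumab, 9 of the 75 members were higher and 0 lower than in untreated cells (adjusted p under 0.05 in edgeR's quasi-likelihood test). Over all tested genes 3.71% were called higher and 3.78% lower (7.48% in either direction). RPS27L led the rises, followed by RPL13A, a 60S protein also known for silencing inflammatory mRNAs, and RPL22, a 60S protein with an early role in lymphocyte development. RPL13A had 208, 167 and 191 CPM with trastuzumab, against 134, 115 and 118 CPM in untreated cells (log2 fold change 0.62 ± 0.13, adjusted p = 0.00696). RPL22 had 128, 110.3 and 133 CPM with trastuzumab, against 78.6, 85.9 and 91.6 CPM in untreated cells (log2 fold change 0.54 ± 0.10, adjusted p = 0.00336). Neither overlapped between the groups. The RPL22 call ended when the fit held only the groups compared (0.0715). The median change was 0.17 (log2) over the members and -0.02 over all tested genes, and 54 members were on the positive side. Of the 9 rises, 8 were among the 38 members at or below the median GC content. Across the members the change went with GC content at r = -0.27, against -0.19 across all genes. Genes share libraries and are not replicates, so these are descriptions. With replicate number as a block, 25 members were higher and 5 lower, 40% of them against 26.2% of all genes. The labels do not say that replicate numbers pair libraries, and the block rests on correlations seen in these same data. Without untreated replicate 2, or without trastuzumab replicate 3, the count was 4.

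With both antibodies 10 members were higher and 1 lower than in untreated cells, against 6.39% of all genes called higher and 6.02% lower (12.4% in either direction). RPS27L, RPL22 and RPL15 rose most. RPL22 had 122, 125 and 148 CPM with both antibodies, against 78.6, 85.9 and 91.6 CPM in untreated cells (log2 fold change 0.63 ± 0.10, adjusted p = 5.18e-04). RPL15, a 60S protein needed for rRNA processing, had 351, 399 and 441 CPM with both antibodies, against 265, 229.8 and 287 CPM in untreated cells (log2 fold change 0.61 ± 0.11, adjusted p = 0.0016). The single fall was that of RPL17, a 60S protein at the exit of the peptide tunnel, with 7.15, 7.56 and 5.84 CPM with both antibodies, against 10.1, 11.3 and 9.71 CPM in untreated cells (log2 fold change -0.60 ± 0.17, adjusted p = 0.0246). For each of these genes every treated library lay beyond every untreated one. The RPL17 call ended without untreated replicate 2 (0.0946) or both antibodies replicate 3 (0.136), or when low counts were not filtered (0.0552) or the fit held only the groups compared (0.0779). The median change of the members was 0.07, and of all genes -0.01. Of the 10 rises, 9 were among the 38 members of lower GC content, with r = -0.31 across the members and -0.25 across all genes. The count of 11 became 6 without untreated replicate 2 or without replicate 2 of both antibodies, and 3 without replicate 3 of both antibodies. The 6 comparisons with untreated cells share those 3 libraries. With a correction for GC content 11 were higher and 3 lower (22.1% of all genes in either direction). With library size alone as the scaling, 7 were higher and 2 lower. That count has no share of all genes beside it and is not read as a result about the members.

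With pertuzumab added to trastuzumab, no member passed the threshold. Both antibodies against trastuzumab alone gave 0 calls among the 75 members, against 0.487% of all genes called higher and 0.38% lower (0.867% in either direction). Of the members, 1 had an unadjusted p under 0.05. DESeq2 and limma also gave 0, as did every other alternative. Member changes had a median of -0.07, a range of -0.27 to 0.10 and 61 of 75 below 0, against a median of 0.00 over all genes. RPS27L, for example, averaged 16.6 ± 1.42 CPM with both antibodies and 15.5 ± 2.58 CPM with trastuzumab (SD, n = 3 each).

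In BT-TR1 the members moved both ways. Relative to untreated cells 14 were higher and 19 lower, against 21.3% higher and 22.3% lower of all genes (43.6% in either direction), shares close to those of the members. RPS27A, RPL23 and RPL27A led the rises. RPL27A, a 60S protein, had 225, 191 and 196 CPM in BT-TR1, against 134, 142 and 153 CPM in untreated cells (log2 fold change 0.51 ± 0.12, adjusted p = 0.00194). RPLP1, RPS21 and RPL29 led the falls. RPS21, a 40S protein, had 9.27, 9.31 and 5.94 CPM in BT-TR1, against 28.5, 18.8 and 11.9 CPM in untreated cells (log2 fold change -1.25 ± 0.34, adjusted p = 0.00618). RPL29, a 60S protein known also for binding heparin at the cell surface, had 40.9, 27.2 and 21.6 CPM in BT-TR1, against 70.7, 58.8 and 54.9 CPM in untreated cells (log2 fold change -1.03 ± 0.30, adjusted p = 0.00986). None of the 3 overlapped between the groups, though the untreated libraries themselves spread widely for RPS21. The RPS21 call ended without untreated replicate 1 (0.0535) and that of RPL29 without BT-TR1 replicate 3 (0.0605). The change of RPL29 was -0.51 after the GC correction.

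In BT-TR1 the direction of change went with base composition. Across the 75 members the change correlated with GC content at r = -0.43, and across all tested genes at -0.48. The 38 members at or below the median GC content had a median of 0.11, with 11 higher and 7 lower, and the 37 above it a median of -0.21, with 3 higher and 12 lower. After the correction for GC content 17 were higher and 12 lower (39.4% of all genes were called in either direction). Without untreated replicate 1 the calls were 12 and 9, and without BT-TR1 replicate 3, the library with the fewest counts, 13 and 8. Members had a median change of -0.04, against -0.01 over all genes.

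BT-TR2, the other trastuzumab-resistant pool, had 14 members higher and 4 lower than untreated cells, against 12.7% higher and 12.1% lower of all genes (24.9% in either direction). RPL19 and RPS2 were among the largest rises. RPS2, a 40S protein at the mRNA entry side, had 421, 341 and 333 CPM in BT-TR2, against 284, 197 and 280.3 CPM in untreated cells (log2 fold change 0.53 ± 0.15, adjusted p = 0.0132). RPL36A, RPL17 and RPL9 fell most, all 3 of them proteins of the 60S subunit, and RPL41, also 60S and named after its values were seen, was the remaining fall. RPL36A had 4.32, 5.35 and 4.42 CPM in BT-TR2, against 10.8, 12.2 and 8.80 CPM in untreated cells (log2 fold change -1.17 ± 0.18, adjusted p = 1.30e-04). RPL17 had 6.84, 5.35 and 6.03 CPM in BT-TR2, against 10.1, 11.3 and 9.71 CPM in untreated cells (log2 fold change -0.77 ± 0.17, adjusted p = 0.00269). RPL9 had 14.2, 11.9 and 12.6 CPM in BT-TR2, against 21.8, 22.3 and 18.0 CPM in untreated cells (log2 fold change -0.68 ± 0.16, adjusted p = 0.00372). The groups did not overlap for any of these genes, and the 3 largest falls held under all 32 alternatives; the RPS2 call ended without untreated replicate 2 (0.0636) or BT-TR2 replicate 1 (0.0664), or when the fit held only the groups compared (0.0616). Over the members the median was 0.22, against 0.00 over all genes. Fitted with the replicate block, 36 were higher and 10 lower (61.3% of members against 45.8% of all genes). Without untreated replicate 2 the count of 18 was 10, and without BT-TR2 replicate 2 it was 11.

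Tested directly, BT-TR2 had 15 members higher and 1 lower than BT-TR1, against 9.64% higher and 8.09% lower of all genes (17.7% in either direction). RPL29, RPL36 and RPS19 differed most, and RPS27A was the one that was lower in BT-TR2. RPL29 had 91.9, 49.4 and 51.6 CPM in BT-TR2 and 40.9, 27.2 and 21.6 CPM in BT-TR1 (log2 fold change 1.09 ± 0.30, adjusted p = 0.0206). RPL36, a 60S protein, had 88.2, 63.5 and 56.6 CPM in BT-TR2 and 39.98, 33.8 and 28.1 CPM in BT-TR1 (log2 fold change 1.03 ± 0.26, adjusted p = 0.0156). RPS19, the 40S protein whose mutation is a known cause of Diamond-Blackfan anaemia, had 219, 151 and 142 CPM in BT-TR2 and 115, 84.9 and 61.9 CPM in BT-TR1 (log2 fold change 0.96 ± 0.24, adjusted p = 0.0124). All BT-TR2 libraries were above all BT-TR1 libraries for these 3. Each of the 3 calls ended without BT-TR1 replicate 2 (0.0866, 0.0645 and 0.0548), without BT-TR1 replicate 3 (0.114, 0.0904 and 0.0816) and without BT-TR2 replicate 1 (0.161, 0.106 and 0.0941). That of RPL29 also ended when the fit held only the groups compared (0.0517).

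The difference between these pools also went with GC content, at r = 0.68 across the members and 0.63 across all genes. The 37 members of higher GC content held 12 of the 15 higher calls. Corrected for GC content, 8 were higher and 2 lower (9.42% of all genes were called in either direction), and the log2 fold change was 0.61 for RPL29, 0.32 for RPL36, which no longer passed (adjusted p = 0.399), and 0.57 for RPS19. The count of 16 fell to 3 without BT-TR1 replicate 2 and to 2 without BT-TR1 replicate 3 or BT-TR2 replicate 1, and was 25 without BT-TR1 replicate 1. RPS27A, with a GC content of 43.5%, kept its call under all 32 alternatives. The member median was 0.21, against 0.01 over all genes.

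**Figure D3:**
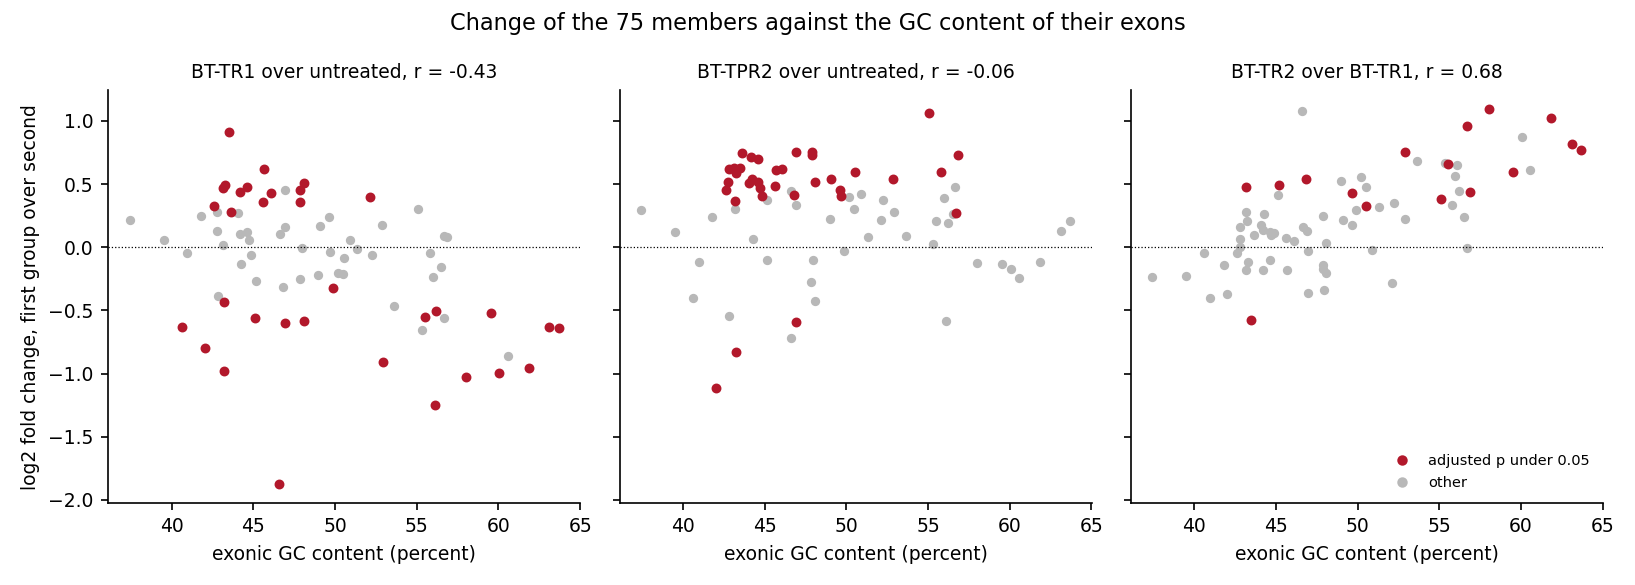
Log2 fold change (y axis) against GC content in percent (x axis) for the 75 members, 1 point each, in 3 comparisons. The axis label reads exonic, and the values are those of the longest annotated transcript. Red points passed an adjusted p under 0.05. The change runs down with GC content in BT-TR1 over untreated cells (r = -0.43) and up in BT-TR2 over BT-TR1 (r = 0.68). In BT-TPR2 over untreated cells r is -0.06, with 21 higher calls among the 38 members of lower GC content and 11 among the 37 of higher.

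BT-TPR1, resistant to both antibodies, had 20 members higher and 5 lower than untreated cells, against 12.9% higher and 14.4% lower of all genes (27.3% in either direction). RPL22, RPL11 and RPS2 rose most. RPL22 had 128, 148 and 135 CPM in BT-TPR1, against 78.6, 85.9 and 91.6 CPM in untreated cells (log2 fold change 0.68 ± 0.10, adjusted p = 9.45e-05). RPS2 had 442, 403 and 341 CPM in BT-TPR1, against 284, 197 and 280.3 CPM in untreated cells (log2 fold change 0.64 ± 0.15, adjusted p = 0.0032). RPL36A, RPL41 and RPL9 fell most. RPL36A had 5.00, 5.98 and 5.70 CPM in BT-TPR1, against 10.8, 12.2 and 8.80 CPM in untreated cells (log2 fold change -0.93 ± 0.18, adjusted p = 9.13e-04). RPL41, the smallest ribosomal protein, had 26.8, 24.7 and 26.3 CPM in BT-TPR1, against 45.7, 54.1 and 37.5 CPM in untreated cells (log2 fold change -0.82 ± 0.17, adjusted p = 0.00176). RPL9 had 13.05, 10.6 and 14.2 CPM in BT-TPR1, against 21.8, 22.3 and 18.0 CPM in untreated cells (log2 fold change -0.71 ± 0.16, adjusted p = 0.00245). None of these genes, nor RPL11, overlapped between the groups, and each of the 6 kept its call under all 32 alternatives. The remaining falls, of RPS26 and RPS10, both of the 40S subunit and named after their values were seen, were smaller. In the median, members changed by 0.19, against 0.00 over all genes. The members of lower GC content held 14 of the 20 rises. The replicate block gave 33 higher and 8 lower (54.7% of members against 47.4% of all genes).

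BT-TPR2 had the most members higher, 32, with 3 lower, against 15.6% higher and 16% lower of all genes (31.6% in either direction). RPL11 and RPL22 were among the largest rises, and RPL22 had 129, 152 and 152 CPM in BT-TPR2, against 78.6, 85.9 and 91.6 CPM in untreated cells (log2 fold change 0.76 ± 0.10, adjusted p = 2.31e-05). The 32 included 21 of 47 proteins of the 60S subunit and 11 of 28 of the 40S subunit. RPL36A fell to 5.06, 4.28 and 5.39 CPM in BT-TPR2, against 10.8, 12.2 and 8.80 CPM in untreated cells (log2 fold change -1.11 ± 0.18, adjusted p = 1.37e-04). RPL17 fell to 6.81, 5.91 and 4.76 CPM in BT-TPR2, against 10.1, 11.3 and 9.71 CPM in untreated cells (log2 fold change -0.83 ± 0.17, adjusted p = 0.00112). Both were below all untreated libraries. RPS10, a 40S protein at the head of the subunit, was the remaining fall and is named after its values were seen, with 3.84, 2.56 and 2.82 CPM in BT-TPR2, against 4.72, 5.43 and 3.72 CPM in untreated cells, and the groups overlapped. RPL11, RPL22, RPL36A and RPL17 kept their calls under all 32 alternatives. The member median was 0.37, with quartiles 0.04 and 0.53, against a median of -0.01 and quartiles -0.41 and 0.33 over all genes. The 38 members of lower GC content held 21 of the higher and all 3 of the lower calls, with a median of 0.43, and the 37 of higher GC content held 11 higher, with a median of 0.26. Under the replicate block 45 were higher and 8 lower (70.7% of members against 51.1% of all genes).

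Between the 2 pools resistant to both antibodies few members differed. BT-TPR2 had 2 higher and 0 lower than BT-TPR1, against 1.64% higher and 1.81% lower of all genes (3.45% in either direction). RPL12, a 60S protein at the base of the stalk, had 117, 116 and 99.7 CPM in BT-TPR2 and 86.3, 77.6 and 74.3 CPM in BT-TPR1 (log2 fold change 0.48 ± 0.13, adjusted p = 0.0464). RPS7, a 40S protein that can also bind MDM2, had 148, 162 and 183 CPM in BT-TPR2 and 109, 130.3 and 139 CPM in BT-TPR1 (log2 fold change 0.38 ± 0.11, adjusted p = 0.04995). All BT-TPR2 libraries were above all BT-TPR1 libraries for both. The RPL12 call ended without any one of trastuzumab replicates 2 or 3, both antibodies replicates 1, 2 or 3, BT-TR1 replicates 2 or 3, BT-TR2 replicate 2, BT-TPR1 replicates 1, 2 or 3 or BT-TPR2 replicates 1, 2 or 3 (from 0.0506 to 0.168), or when library size alone was the scaling (0.129) or the fit held only the groups compared (0.111). That of RPS7 ended when any of 18 of the 21 libraries was left out (from 0.0571 to 0.289), the exceptions being replicate 3 of both antibodies, BT-TPR1 replicate 3 and BT-TPR2 replicate 1, and under 7 of the other 11 alternatives (to 0.322). The count of 2 was 0, 1 or 3 without a single library. With the replicate block 9 were higher and 1 lower, 13.3% of members against 12% of all genes. The member median was 0.10, against 0.00 over all genes.

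**Figure D4:**
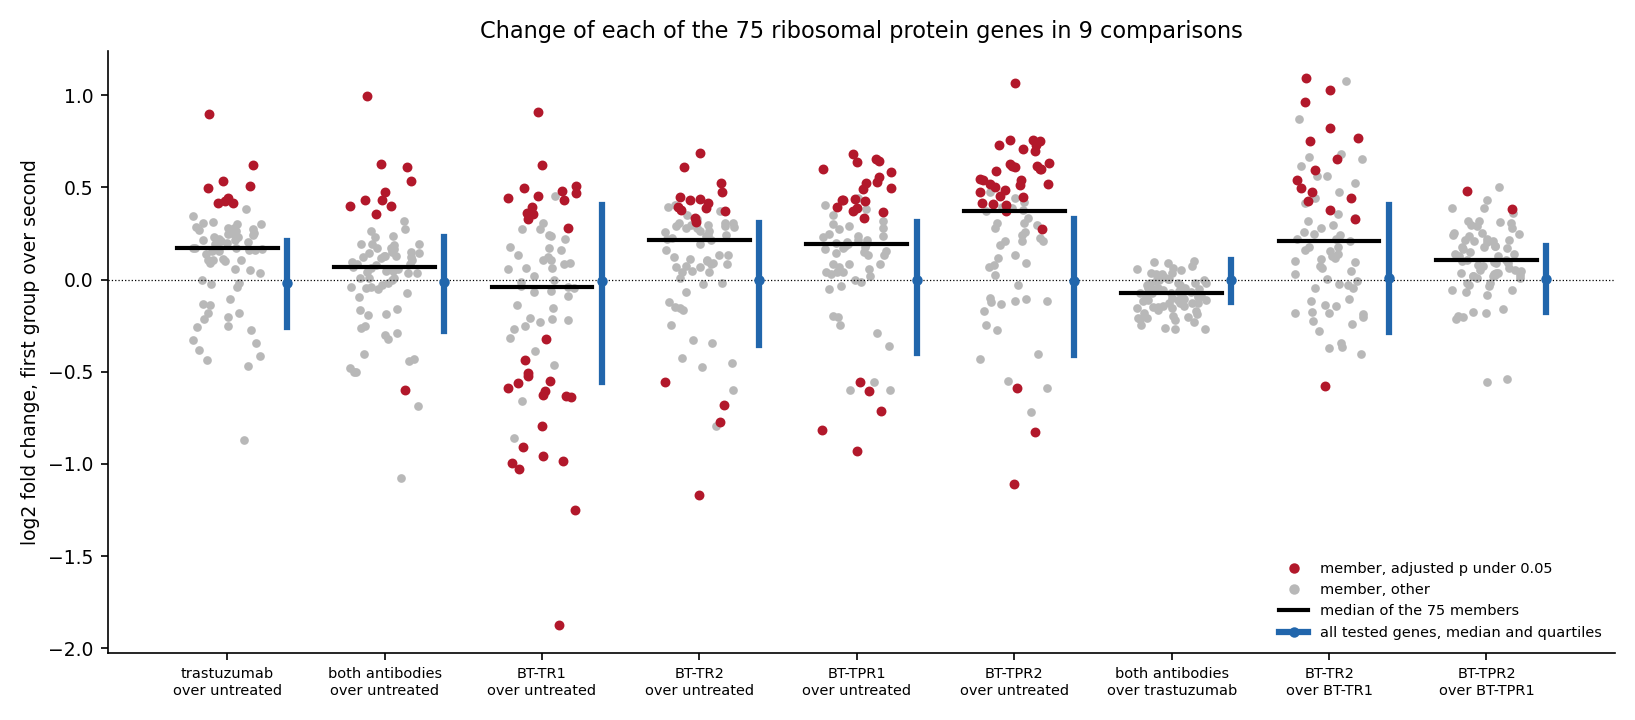
Log2 fold change of each of the 75 members (points, y axis) in the 9 comparisons (x axis, first group over second). Red points passed an adjusted p under 0.05, black bars are the member medians, and blue bars give the median and quartiles of all 17650 tested genes. The member median was 0.37 in BT-TPR2 over untreated cells and -0.04 in BT-TR1, where the members spread most (SD 0.51 on the log2 scale).

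**Figure D5:**
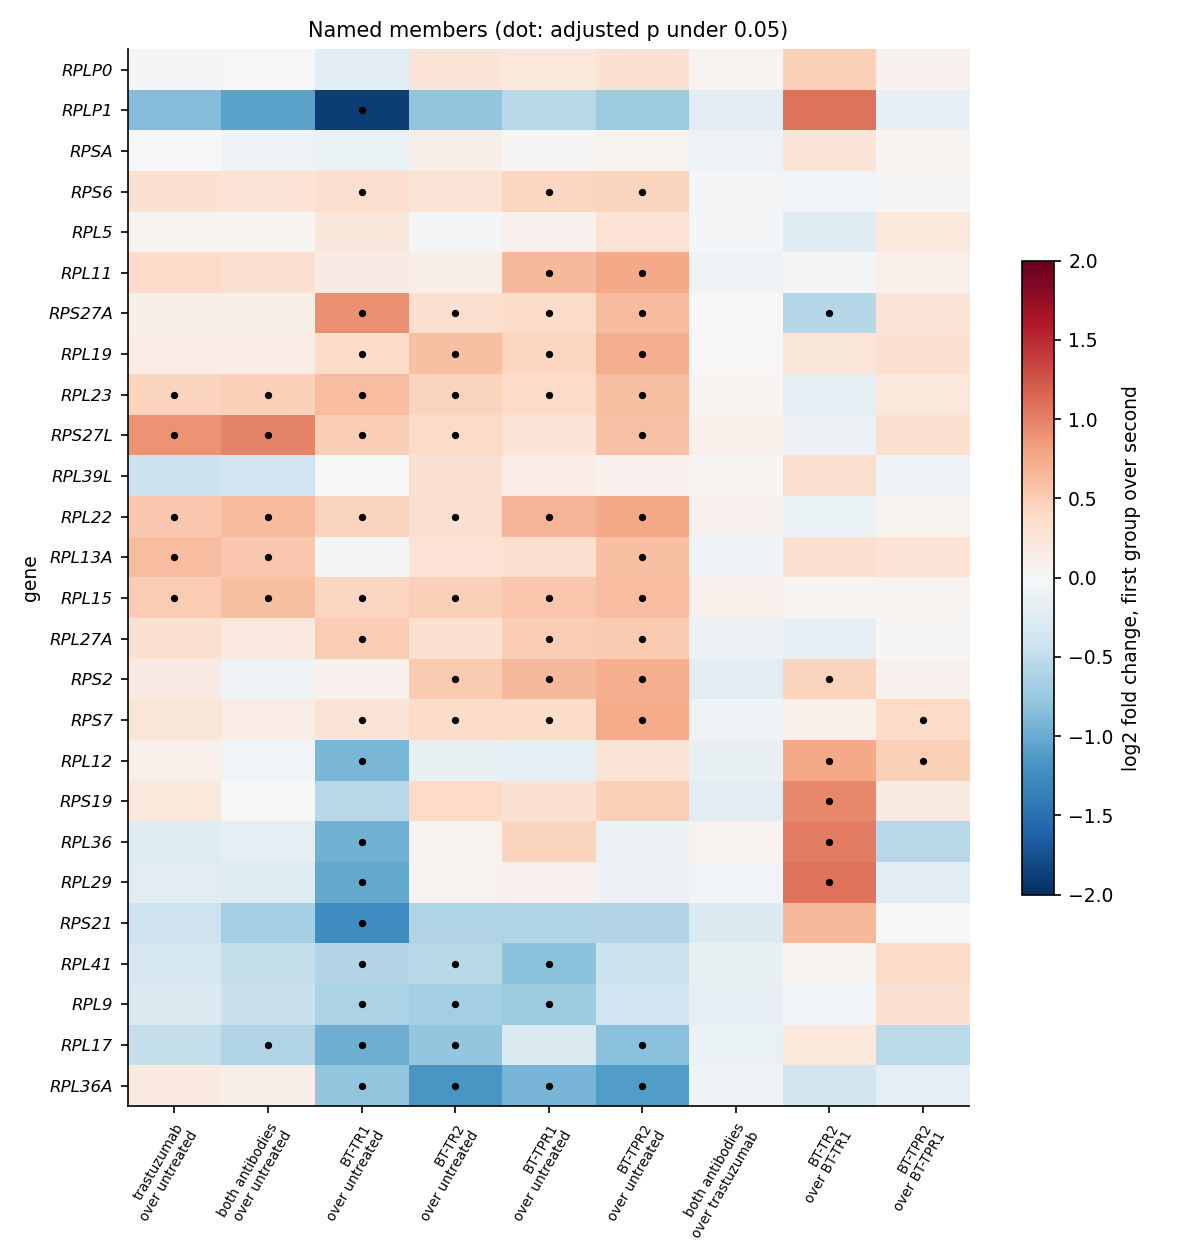
Log2 fold change (colour, scale at the right) of named members (rows) in the 9 comparisons (columns, first group over second); a dot marks an adjusted p under 0.05. RPL36A is blue in the 4 pools and not under the antibodies, RPS27L is deepest red under the antibodies, and RPLP1 is lowest in BT-TR1 at -1.88.

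Within the members, median changes for the 47 proteins of the 60S and the 28 of the 40S subunit were 0.06 and 0.09 with both antibodies, 0.17 and 0.21 with trastuzumab, 0.19 and 0.22 in BT-TR2, -0.04 and -0.02 in BT-TR1, 0.33 and 0.37 in BT-TPR2 and 0.19 and 0.23 in BT-TPR1. For the 47 members whose annotated start lay in a pyrimidine run and the 13 without one they were 0.09 and 0.11 with both antibodies, 0.17 and 0.25 with trastuzumab, 0.22 and 0.26 in BT-TR2, -0.09 and 0.11 in BT-TR1, 0.38 and 0.44 in BT-TPR2 and 0.21 and 0.19 in BT-TPR1. In BT-TR2 over BT-TR1 they were 0.25 and 0.08, with 10 higher and 1 lower among the members with a run and 0 calls among those without. The 15 members with no annotated start had 5 higher and 0 lower there, with a median of 0.30. Over all genes 17.7% were called in that comparison, in either direction. In BT-TR1 the signs of these medians differed between the kinds of start, and the 15 members with no annotated start had a median of -0.01. None of these differences was tested, and the split by start depends on where the start is annotated. Leaving out the 28 members whose pseudogenes held as many counts, the other 47 had 18 higher and 3 lower in BT-TPR2, 14 and 5 in BT-TPR1, 11 and 4 in BT-TR2, 8 and 13 in BT-TR1, 5 and 1 with both antibodies and 5 and 0 with trastuzumab.

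Other genes of protein synthesis were counted beside the members, from lists of known function, against untreated cells and with the shares of all genes given above. The alternatives were read for the members alone, so no call in these lists was checked for GC content or for single libraries. In BT-TR1 the change of all tested genes went with GC content at r = -0.48. The mitochondrial ribosomal proteins, which make the separate ribosome of mitochondria, had 75 tested members, of which 2 were higher and 2 lower with both antibodies (median -0.02), 2 and 0 with trastuzumab (median 0.00), 23 and 0 in BT-TR2 (median 0.29), 33 and 9 in BT-TR1 (median 0.21), 30 and 0 in BT-TPR2 (median 0.24) and 31 and 0 in BT-TPR1 (median 0.35). In BT-TR2, BT-TPR2 and BT-TPR1 every call in this list was a rise. MRPS6, a protein of the small mitochondrial subunit, rose in BT-TR2 (log2 fold change 0.99 ± 0.12, adjusted p = 1.01e-05), in BT-TR1 (0.74 ± 0.12, adjusted p = 1.66e-04), in BT-TPR2 (0.85 ± 0.12, adjusted p = 3.54e-05) and in BT-TPR1 (0.84 ± 0.12, adjusted p = 5.65e-05), and MRPL12, which also binds mitochondrial RNA polymerase, fell with both antibodies (-1.75 ± 0.56, adjusted p = 0.0488) and in BT-TR1 (-2.32 ± 0.67, adjusted p = 0.00941). Of 7 genes for cytosolic ribosomal proteins or named after one, whose symbols the rule does not admit, such as FAU and RPL7L1, 0 were higher and 0 lower with both antibodies (median 0.05), 1 and 0 with trastuzumab (median 0.12), 2 and 0 in BT-TR2 (median 0.39), 2 and 0 in BT-TR1 (median 0.28), 3 and 0 in BT-TPR2 (median 0.09) and 1 and 0 in BT-TPR1 (median 0.32). Among them RPL7L1 rose in BT-TR2 (0.43 ± 0.12, adjusted p = 0.0165), in BT-TR1 (0.65 ± 0.12, adjusted p = 4.98e-04), in BT-TPR2 (0.46 ± 0.12, adjusted p = 0.00812) and in BT-TPR1 (0.49 ± 0.12, adjusted p = 0.00627), where it was the only call. GNB2L1, which encodes the 40S scaffold protein RACK1, rose in BT-TPR2 (0.57 ± 0.19, adjusted p = 0.0308). RPL36AL, the autosomal copy of RPL36A, rose with trastuzumab (0.33 ± 0.10, adjusted p = 0.0446), in BT-TR2 (0.52 ± 0.10, adjusted p = 6.74e-04) and in BT-TR1 (0.75 ± 0.10, adjusted p = 1.42e-05). RPL36A itself had 4.97, 6.96 and 6.47 CPM in BT-TR1, against 10.8, 12.2 and 8.80 CPM in untreated cells (log2 fold change -0.79 ± 0.19, adjusted p = 0.00242), a value chosen after it was seen.

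Of 78 ribosome biogenesis genes, 1 was higher and 1 lower with both antibodies (median -0.05), 0 and 0 with trastuzumab (median -0.05), 5 and 6 in BT-TR2 (median -0.04), 21 and 12 in BT-TR1 (median 0.17), 7 and 6 in BT-TPR2 (median 0.03) and 7 and 3 in BT-TPR1 (median 0.06). NOP10, of the particles that guide pseudouridylation of rRNA, rose in BT-TR2 (0.87 ± 0.15, adjusted p = 2.99e-04), in BT-TR1 (0.53 ± 0.15, adjusted p = 0.00861) and in BT-TPR2 (0.76 ± 0.15, adjusted p = 6.90e-04). BOP1, a pre-rRNA processing factor of the 60S pathway, fell in BT-TR1 (-1.91 ± 0.42, adjusted p = 0.00148). Of 17 genes of RNA polymerase I and its factors, 0 were higher and 0 lower with both antibodies (median -0.04), 0 and 0 with trastuzumab (median -0.04), 2 and 1 in BT-TR2 (median -0.01), 5 and 3 in BT-TR1 (median 0.15), 3 and 1 in BT-TPR2 (median 0.03) and 2 and 1 in BT-TPR1 (median 0.03). POLR2K, a subunit shared by the nuclear RNA polymerases, rose in BT-TR2 (0.61 ± 0.19, adjusted p = 0.0245), in BT-TR1 (0.69 ± 0.19, adjusted p = 0.00732), in BT-TPR2 (0.71 ± 0.19, adjusted p = 0.00815) and in BT-TPR1 (0.66 ± 0.19, adjusted p = 0.0144). TAF1D, of the selectivity factor SL1, fell in BT-TR2 (-0.89 ± 0.20, adjusted p = 0.00298), in BT-TPR2 (-0.86 ± 0.20, adjusted p = 0.00275) and in BT-TPR1 (-0.64 ± 0.20, adjusted p = 0.02). Of 40 initiation factors, 2 were higher and 1 lower with both antibodies (median 0.08), 1 and 1 with trastuzumab (median 0.06), 8 and 4 in BT-TR2 (median 0.18), 20 and 4 in BT-TR1 (median 0.28), 15 and 3 in BT-TPR2 (median 0.26) and 11 and 3 in BT-TPR1 (median 0.19). EIF4A1, the RNA helicase of the cap-binding complex, fell in BT-TR2 (-1.41 ± 0.28, adjusted p = 0.00123), BT-TR1 (-1.54 ± 0.29, adjusted p = 5.51e-04) and BT-TPR1 (-1.41 ± 0.28, adjusted p = 0.00115). It averaged 3.41 ± 0.972 CPM in BT-TR1, against 10.2 ± 1.89 CPM in untreated cells (SD, n = 3 each). Its paralog EIF4A2 averaged 423 ± 45.8 CPM in untreated cells. Overlapping genes and pseudogenes were examined for the members alone, so the level of EIF4A1 is uncertain. EIF3E, a subunit of the factor that recruits the 40S subunit, rose in BT-TR1 (1.03 ± 0.21, adjusted p = 8.17e-04), in BT-TPR2 (0.84 ± 0.21, adjusted p = 0.00476) and in BT-TPR1 (0.56 ± 0.21, adjusted p = 0.0486). Of 8 elongation factors, 0 were higher and 0 lower with both antibodies (median 0.11), 0 and 0 with trastuzumab (median -0.01), 1 and 1 in BT-TR2 (median 0.20), 3 and 2 in BT-TR1 (median 0.05), 2 and 0 in BT-TPR2 (median 0.24) and 1 and 0 in BT-TPR1 (median 0.27); EEF1A2, the tissue-restricted form of the factor that delivers aminoacyl-tRNA, fell in BT-TR2 (-1.11 ± 0.23, adjusted p = 0.00194) and BT-TR1 (-2.37 ± 0.25, adjusted p = 9.16e-07).

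Of 20 other genes known for TOP mRNAs, some of them also in the lists of factors, 3 were higher and 1 lower with both antibodies (median 0.15), 2 and 0 with trastuzumab (median 0.19), 6 and 4 in BT-TR2 (median 0.20), 10 and 5 in BT-TR1 (median 0.26), 9 and 3 in BT-TPR2 (median 0.22) and 7 and 4 in BT-TPR1 (median 0.21). VIM, the intermediate filament vimentin, rose with both antibodies (0.65 ± 0.15, adjusted p = 0.00761) and with trastuzumab (0.79 ± 0.15, adjusted p = 0.00308) and fell in BT-TR2 (-0.96 ± 0.16, adjusted p = 2.00e-04), BT-TR1 (-1.45 ± 0.17, adjusted p = 3.46e-06), BT-TPR2 (-2.51 ± 0.17, adjusted p = 3.61e-09) and BT-TPR1 (-2.97 ± 0.18, adjusted p = 8.95e-10). GAS5, a TOP transcript that encodes small nucleolar RNAs and no protein, fell in BT-TR2 (-1.15 ± 0.14, adjusted p = 7.09e-06), in BT-TR1 (-0.70 ± 0.14, adjusted p = 6.48e-04), in BT-TPR2 (-1.07 ± 0.14, adjusted p = 1.01e-05) and in BT-TPR1 (-0.89 ± 0.14, adjusted p = 1.05e-04). Of 28 regulators around mTOR, S6 kinase and MYC, 4 were higher and 0 lower with both antibodies (median 0.03), 3 and 0 with trastuzumab (median 0.12), 6 and 3 in BT-TR2 (median 0.06), 9 and 11 in BT-TR1 (median -0.05), 6 and 2 in BT-TPR2 (median 0.07) and 5 and 0 in BT-TPR1 (median 0.14). MXI1, an antagonist of MYC, rose with both antibodies (1.77 ± 0.24, adjusted p = 6.31e-05), with trastuzumab (1.62 ± 0.24, adjusted p = 3.11e-04), in BT-TR2 (0.82 ± 0.24, adjusted p = 0.0186), in BT-TR1 (0.79 ± 0.25, adjusted p = 0.0164), in BT-TPR2 (1.66 ± 0.24, adjusted p = 3.82e-05) and in BT-TPR1 (1.79 ± 0.24, adjusted p = 2.28e-05). DEPTOR, an inhibitor within mTOR complexes, rose with both antibodies (1.16 ± 0.13, adjusted p = 9.12e-06), with trastuzumab (1.24 ± 0.13, adjusted p = 1.28e-05), in BT-TR1 (0.77 ± 0.13, adjusted p = 2.03e-04), in BT-TPR2 (0.36 ± 0.13, adjusted p = 0.0418) and in BT-TPR1 (0.88 ± 0.13, adjusted p = 7.04e-05). Of 10 genes on the p53 arm of the ribosomal stress response, 4 were higher and 0 lower with both antibodies (median 0.47), 4 and 0 with trastuzumab (median 0.51), 0 and 0 in BT-TR2 (median -0.01), 0 and 2 in BT-TR1 (median -0.29), 1 and 1 in BT-TPR2 (median 0.06) and 0 and 1 in BT-TPR1 (median 0.01). CDKN1A, the p53 target that encodes p21, rose with both antibodies (1.53 ± 0.27, adjusted p = 8.76e-04) and with trastuzumab (1.40 ± 0.27, adjusted p = 0.00339). BBC3, another p53 target, fell in BT-TR1 (-1.47 ± 0.49, adjusted p = 0.0219).

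Between pools, the calls higher and lower in BT-TR2 than in BT-TR1 were 6 and 6 among the mitochondrial ribosomal proteins, 0 and 0 among the other cytosolic ribosomal proteins, 7 and 15 among ribosome biogenesis, 2 and 2 among RNA polymerase I, 3 and 4 among the initiation factors, 2 and 1 among the elongation factors, 2 and 3 among the other TOP mRNAs, 8 and 4 among the mTOR, S6 kinase and MYC regulators and 0 and 0 among the p53 arm. In BT-TPR2 against BT-TPR1 they were 1 and 0 among the mitochondrial ribosomal proteins, 0 and 0 among the other cytosolic ribosomal proteins, 1 and 1 among ribosome biogenesis, 0 and 0 among RNA polymerase I, 0 and 0 among the initiation factors, 0 and 0 among the elongation factors, 0 and 0 among the other TOP mRNAs, 0 and 3 among the mTOR, S6 kinase and MYC regulators and 0 and 0 among the p53 arm. The numbers tested per list are those given above. Over all genes 9.64% were called higher and 8.09% lower in BT-TR2 than in BT-TR1, and 1.64% higher and 1.81% lower in BT-TPR2 than in BT-TPR1. In BT-TR2 over BT-TR1 the change went with GC content at r = 0.63 across all genes. No gene of these 9 lists passed the test between both antibodies and trastuzumab alone, against 0.867% of all genes. The lists overlap in part, and no test was made of a list as a whole.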

How the data were processed

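RNA-seq counts per gene were deposited for 21 libraries (7 groups of 3). The authors' counts come, per the submitters' processing notes, from Bowtie2, featureCounts and hg38, with DESeq2 also named; versions, strand setting and treatment of multiply mapped reads are not given in the sources used here. The authors' deposited variance-stabilized values, on a log2-like scale with DESeq2 named in those notes, entered only as an alternative, in limma 3.58.1.

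All 21 libraries were fitted together with 1 term per group in edgeR 4.0.16 (TMM scaling, filterByExpr with a minimum count of 10 and total of 15, quasi-likelihood test, 14 residual degrees of freedom). P-values were adjusted by Benjamini-Hochberg over 17650 genes, and genes with an adjusted p under 0.05 were called. CPM use TMM-scaled library sizes; fold changes are the first group over the second, and ± after one is its standard error. Gene positions, length over all annotated exons and GC content of the longest transcript are from GENCODE 29, and starts from RefSeq (GRCh38.p14). The fit was tested on simulated data, where it recovered large fold changes more often than small ones, so a missing call does not show equal levels.

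Named genes were 8 members fixed by role, the paralogs, up to 3 rises and 3 falls per comparison among called members without overlap, and up to 2 called genes per other list and comparison; exceptions are stated. The members and lists were chosen with earlier results of these data known. Same-numbered libraries deviated together (every pair's correlation over 0.1) in each comparison but both antibodies against untreated cells (lowest -0.01) and BT-TR2 against BT-TR1 (lowest 0.07). In the others the replicate block is used as if it were a pairing. The labels name no pairing, the limit of 0.1 was applied to these same data, and BT-TR1 against untreated cells passed it narrowly (lowest 0.13). Alternatives were 11 settings of filter, scaling, tool, samples, block and GC content, and leaving out each library in turn. Library totals ran from 7939270 to 21746391 counts, and intervals for single counts are not given. Some members that the naming rule takes are not reported here.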

Additional observations from a re-analysis of the deposited data

Results flagged for a closer look

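The naming rule took 6 members between pools of the same kind of resistance, each because it passed the direct test between the pools. That test is of the difference of their 2 changes from untreated cells. In BT-TR2 against BT-TR1 the log2 fold change was 1.09 for RPL29, 1.03 for RPL36, 0.96 for RPS19 and -0.58 for RPS27A. RPL29 and RPL36 had a GC content of 58.0% and 61.9%, RPS19 of 56.7% and RPS27A of 43.5%, against a member median of 47.9%. In BT-TPR2 against BT-TPR1 it was 0.48 for RPL12 and 0.38 for RPS7. Only the RPS27A difference kept its call under all 32 alternatives; the values that ended the others stand with each result above.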

How the results depend on the processing

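Counts of called members, either direction, were 9 with trastuzumab, 11 with both antibodies, 33 in BT-TR1, 18 in BT-TR2, 25 in BT-TPR1 and 35 in BT-TPR2, all over untreated cells, 16 in BT-TR2 over BT-TR1 and 2 in BT-TPR2 over BT-TPR1, and those that moved by more than 1.5 times are given here. Fitting only the groups compared, which leaves fewer libraries to estimate the spread, gave 2 with trastuzumab, 4 with both antibodies, 20 in BT-TR1, 8 in BT-TR2, 16 in BT-TPR1, 6 in BT-TR2 over BT-TR1 and 0 in BT-TPR2 over BT-TPR1. With the replicate block the counts were 30 with trastuzumab, 46 in BT-TR2, 41 in BT-TPR1, 53 in BT-TPR2 and 10 in BT-TPR2 over BT-TPR1. Where same-numbered libraries did not all deviate together, they were 22 with both antibodies and 39 in BT-TR2 over BT-TR1. The block ended no named call. Replicates 2 and 3 alone gave 20 with both antibodies, 54 in BT-TPR2 and 27 in BT-TR2 over BT-TR1. The GC correction gave 18 with trastuzumab, 33 in BT-TR2, 10 in BT-TR2 over BT-TR1 and 6 in BT-TPR2 over BT-TPR1, and with the block 36 with trastuzumab, 25 with both antibodies, 48 in BT-TR2, 49 in BT-TPR1, 58 in BT-TPR2, 26 in BT-TR2 over BT-TR1 and 15 in BT-TPR2 over BT-TPR1. Library size alone gave 5 with trastuzumab and 0 in BT-TPR2 over BT-TPR1. In BT-TPR2 over BT-TPR1 the RLE normalization, TMM without the members and limma each gave 1, and DESeq2 gave 6. Leaving out 1 library at a time gave 4 to 12 with trastuzumab, 3 to 13 with both antibodies, 21 to 34 in BT-TR1, 10 to 20 in BT-TR2, 17 to 27 in BT-TPR1, 27 to 43 in BT-TPR2, 2 to 25 in BT-TR2 over BT-TR1 and 0 to 3 in BT-TPR2 over BT-TPR1. Both antibodies over trastuzumab gave 0 in each of the 32 alternatives. The cause of these moves was not tested, beyond the smaller number of libraries where some were left out. The share of all genes called moved too. With the block it was 26.2% with trastuzumab, 45.8% in BT-TR2, 47.4% in BT-TPR1, 51.1% in BT-TPR2 and 12% in BT-TPR2 over BT-TPR1. Without the block these shares were 7.48, 24.9, 27.3, 31.6 and 3.45%. Most other settings have no such share beside them here, so their counts are not read as results about the members. Of 53 calls taken by the naming rule, 32 held under every alternative and 21 ended under at least 1; of their 1696 alternative values 143 ended a call and 0 turned its direction. Library size alone moved the median change of all genes to 0.14 in BT-TPR1, where members are read relative to it. Depth limits the lowest members, such as RPS10, with 1336 counts over the 21 libraries.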
